A study of Mus musculus with 4 samples.

Results

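The Nr4a genes Nr4a1, Nr4a2 and Nr4a3 are the 3 members of a family of orphan nuclear receptors, and they were found by gene symbol among the 32287 features of a single-nucleus RNA sequencing matrix from mouse medial prefrontal cortex. The study labels give 4 samples of C57BL/6J mice aged 9 weeks, dissected 24 hours after injection: 2 given DOI, a psychedelic that activates serotonin 2A and 2C receptors, and 2 given saline. Each treatment had 1 female sample and 1 male sample. All of the tissue, saline samples included, expressed scFLARE2, which frees the transcription factor tTA where calcium is raised under light, and a TRE transgene that codes for mCherry and the opsin bReaChES. How many animals each sample holds, how the transgenes were delivered and the dose of DOI are not given in the sources used here. The deposited matrix pools 4 barcode libraries, here libraries 1 to 4, and nothing used here ties a library to a sample. It was therefore treated as 1 sample: DOI was not compared with saline, nor one sex with the other, and every value below compares cell classes within these libraries.

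The libraries held 19968985 to 57947155 UMIs (unique molecular identifiers, each marking 1 captured RNA molecule), and 12981 of 22402 barcodes were kept, with a median of 8892 UMIs and 3322 genes. Of these nuclei 8218 were excitatory, 1346 inhibitory, 542 other neurons and 2739 non-neuronal, and 136 fell into clusters with markers of more than 1 kind of cell. By markers 9444 nuclei fell into 18 classes, written X-like because the names rest on marker genes alone. The other 3537 nuclei formed 10 clusters called by their leading genes. Cortical markers defined the largest classes, but 332 nuclei were striatal medium spiny-like, with a single one in library 4, so the dissected tissue was not cortex alone. Libraries 1 to 4 gave 4187, 3474, 1573 and 3747 nuclei. Of the barcode sequences, 17 occurred in a pair of libraries among kept nuclei.

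Nr4a proteins bind DNA without a known physiological ligand, so how much of each receptor a cell makes largely sets its activity. All 3 genes are immediate early genes: calcium and cAMP signalling through CREB switches them on within minutes, and their transcripts fade within hours. In the cortex Nr4a1 restrains dendritic spine density in excitatory neurons, Nr4a2 marks subplate-derived deep neurons and the claustrum besides its better known part in midbrain dopamine neurons, and Nr4a3 is linked to memory and, in striatum, to responses to drugs.

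On build GRCm38 with the GENCODE M21 annotation, Nr4a1 (ENSMUSG00000023034) spans chr15:101254269-101274795 on the plus strand. Nr4a2 (ENSMUSG00000026826) spans chr2:57106830-57124003 on the minus strand and Nr4a3 (ENSMUSG00000028341) chr4:48045153-48086447 on the plus strand. No other annotated gene overlaps any of them. The sequences before their RefSeq starts are shown because they carry what the family shares at the DNA level: copies of TGACG, the core of the cAMP response element, which CREB binds. Capitals mark TGACG read on either strand, so that CGTCA is the same motif on the opposite strand. The stretches are RefSeq promoter sequence of build GRCm38.p6, written in the direction of transcription: for Nr4a1 the 250 bases at chr15:101266596-101266845 (plus strand, inside the annotated gene but in no annotated exon), for Nr4a2 the 250 bases at chr2:57124004-57124253 (minus strand), and for Nr4a3 30 bases at chr4:48045085-48045114 (plus strand).
Nr4a1: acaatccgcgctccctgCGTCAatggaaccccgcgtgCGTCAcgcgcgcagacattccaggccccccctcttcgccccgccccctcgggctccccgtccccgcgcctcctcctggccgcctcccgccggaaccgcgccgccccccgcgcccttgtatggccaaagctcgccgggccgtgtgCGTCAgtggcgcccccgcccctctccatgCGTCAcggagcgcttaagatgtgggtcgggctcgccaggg
Nr4a2: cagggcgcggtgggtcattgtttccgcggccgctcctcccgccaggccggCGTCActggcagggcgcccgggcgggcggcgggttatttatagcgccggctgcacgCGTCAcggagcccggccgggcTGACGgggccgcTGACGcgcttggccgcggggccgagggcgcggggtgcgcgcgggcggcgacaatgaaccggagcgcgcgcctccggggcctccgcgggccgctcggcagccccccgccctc
Nr4a3: cccatgtCGTCAcatTGACGtctcgcattc
In windows from 250 bases before to 50 bases after each start, every one of the 3 genes held 4 copies of TGACG. The copies lay 233, 213, 69 and 40 bases before the start in Nr4a1, 200, 144, 123 and 111 in Nr4a2, and 231, 213, 205 and 147 in Nr4a3. The Nr4a3 copy 147 bases before the RefSeq start lies inside the annotated gene, whose first base is chr4:48045153. Of 32851 such windows in the table, 20.8% held at least 1 copy and 76 (0.231%) held at least 4. Among 19 other immediate early genes with a window, 14 held at least 1 copy and 0 held 4. The full palindrome TGACGTCA was in 1.79% of windows and AAAGGTCA, the monomer site that Nr4a proteins bind, in 1.51%. None of the 3 windows held either. GGGCGG, the site of Sp1, was in 35.7% of windows and had 3 copies in Nr4a1, 5 in Nr4a2 and 1 in Nr4a3. A match of letters describes the sequence and shows no binding.

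Transcripts of all 3 genes were detected in every library. Nr4a1 had 7923 UMIs in kept nuclei and was seen in 33.6% of them, at 65.2, 52.4, 66.5 and 65.5 CPM (UMIs per 1000000 UMIs of the class or library) in libraries 1 to 4. Nr4a3 had 4176 UMIs, was seen in 17.9% of nuclei, and stood at 29.8, 36.6, 34.9 and 31.4 CPM. Nr4a2 had 1388 UMIs, was seen in 6.61% of nuclei, and stood at 10.2, 11.6, 12.8 and 10.1 CPM. No library stood far from the others for any of the 3. UMIs were unevenly spread over nuclei: the 141 nuclei with at least 5 Nr4a3 UMIs held 24.2% of all Nr4a3 UMIs, and 1 nucleus held 32. For Nr4a2 37 such nuclei held 17.9%, and for Nr4a1 202 held 15.03%. Levels are not compared between genes, because capture at the 3′ end differs from gene to gene.

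**Figure D1:**
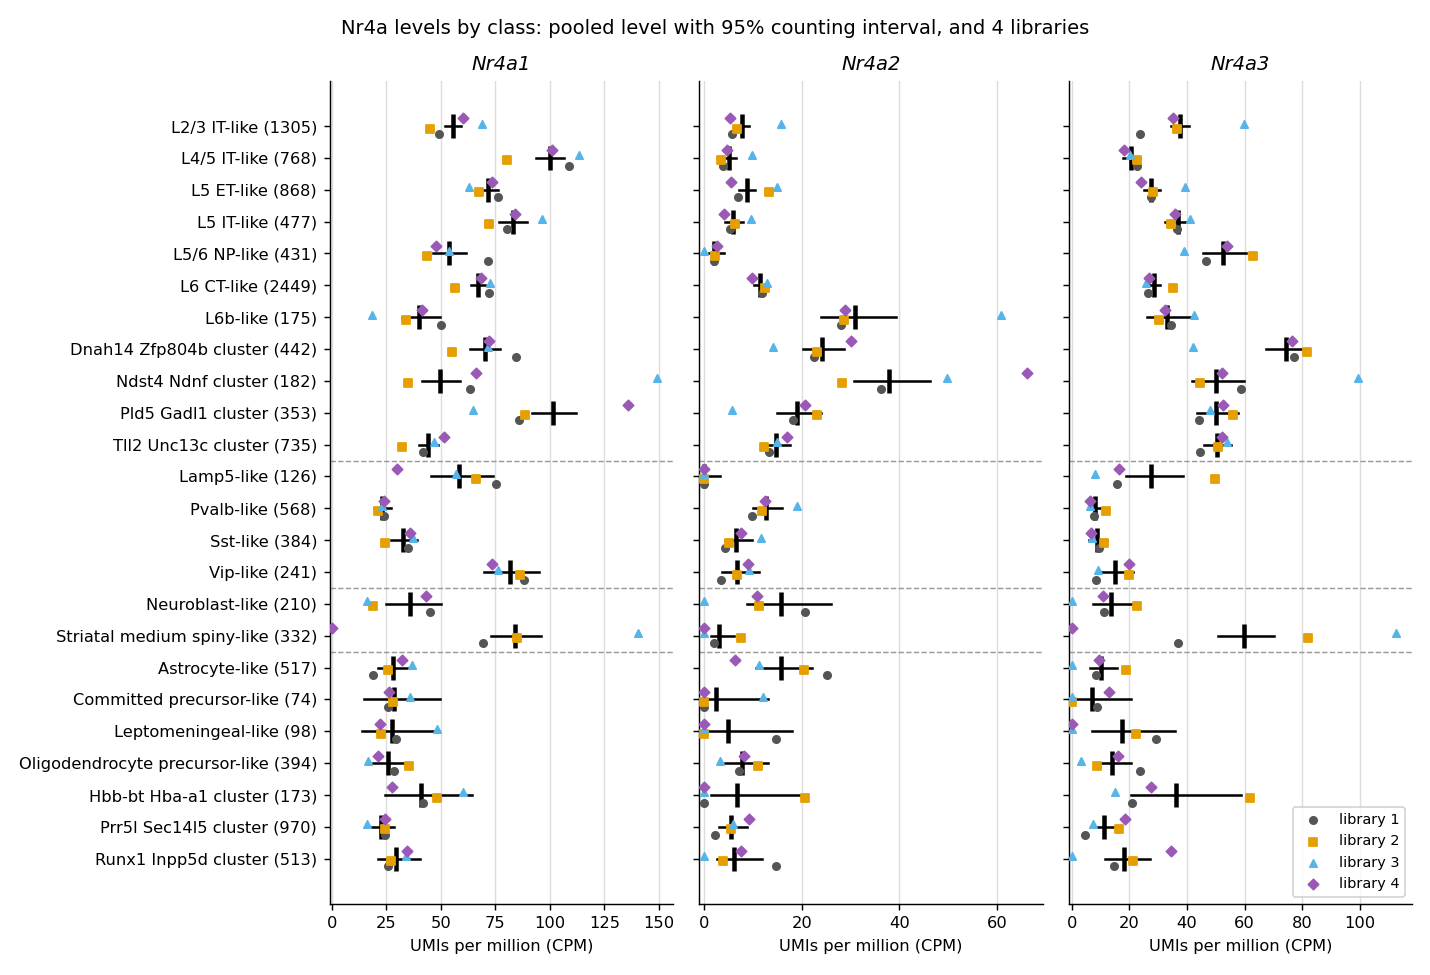
Level of each Nr4a gene in CPM (x axes) by class (y axis, number of nuclei in parentheses; classes of at least 50 nuclei). Vertical ticks are pooled levels, lines their 95% counting intervals and coloured points libraries 1 to 4. Nr4a1 is broad across excitatory classes but low in Pvalb-like nuclei (23.0 CPM). Nr4a2 peaks in L6b-like nuclei (31.0 CPM) and a few unnamed excitatory clusters, and Nr4a3 peaks in the Dnah14 Zfp804b cluster (74.3 CPM).

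The first comparison asked which kind of neuron carries each gene, and Nr4a3 differed most between excitatory and inhibitory nuclei. Nr4a3 stood at 33.9, 40.1, 40.6 and 35.1 CPM in excitatory nuclei of libraries 1 to 4, against 8.93, 17.3, 8.66 and 9.07 CPM in inhibitory nuclei. Every excitatory value lay above every inhibitory one. The pooled levels of 36.8 against 11.3 CPM gave a log2 ratio of 1.71 (95% interval 1.47 to 1.96). A gene was called higher or lower where both sides together held 100 UMIs or more, the levels differed 2-fold or more, and all 4 libraries had the same direction, and Nr4a3 met this rule. The rule goes by size and carries no test. Intervals here and below reflect counting error alone and leave out how much animals vary. Of 15787 genes compared, 9.14% were called higher in excitatory nuclei and 7.56% lower, so a call by itself is not rare.

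Nr4a1 was also above inhibitory nuclei in every library but missed the 2-fold size. It stood at 71.4, 56.3, 74.2 and 71.8 CPM in excitatory nuclei, against 43.2, 37.9, 37.9 and 34.1 CPM in inhibitory ones, which is a log2 ratio of 0.84 (0.71 to 0.97). Nr4a2 stood at 11.1, 12.4, 13.3 and 10.7 CPM in excitatory nuclei, against 5.95, 7.54, 14.1 and 9.31 CPM in inhibitory nuclei, and the groups overlapped (log2 ratio 0.42, 0.14 to 0.72). With nuclei of named classes alone, an alternative chosen after the data had been seen, the Nr4a2 ratio was 0.06. Free RNA bears on the inhibitory values. Slc17a7, whose product loads glutamate into synaptic vesicles, reached 31.4% of its excitatory level in inhibitory nuclei, and the excitatory markers Neurod6, Tbr1 and Neurod2 reached 23.9% to 34.1%. None of these 4 was at 0. The inhibitory level of Nr4a3 was 30.6% of the excitatory one, within that range, and cannot be told apart from such background, whereas Nr4a1 stood at 55.9% and Nr4a2 at 74.5%.

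Other activity genes were higher in excitatory nuclei too. Of 21 immediate early genes measured 7 were called higher and 0 lower (median log2 ratio 0.68, against -0.13 over all genes). They were led by Klf10, a zinc finger repressor, at 44.5 against 6.01 CPM (log2 ratio 2.89, 2.57 to 3.23), by the ERK phosphatase gene Dusp5 (2.29, 1.58 to 3.11) and by the transcription factor gene Egr3 (1.87, 1.63 to 2.12). Of 15 late activity genes 7 were higher and 1 was lower (median 0.80), with Baz1a, a chromatin remodelling gene, at 3.27 on 6.68 against 0.694 CPM, the neurotrophin gene Bdnf at 2.25 (2.00 to 2.52) and the cyclooxygenase gene Ptgs2 at 1.88 (1.41 to 2.39). Of 18 genes of the CREB, MEF2 and SRF pathway that act upstream of Nr4a induction, 1 was higher, the calcium-dependent kinase gene Camk4 (1.48). Of 12 dimer partners and corepressors 1 was lower, Rxra (-1.17, -1.54 to -0.79), a retinoid X receptor that can pair with Nr4a1 and Nr4a2. Of 15 other orphan and steroid receptor genes 1 was higher, Rorb (2.92), which is also a marker used for naming, and 4 were lower, led by Nr2f2 (-4.23, -4.60 to -3.87) and Nr2e1 (-3.29, -3.84 to -2.75). Of 2 measured genes of the dopamine neuron list, 1 was higher, the aldehyde dehydrogenase gene Aldh1a1 (2.65, 1.97 to 3.44).

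Among named excitatory classes both calls of a member were for Nr4a2, 1 in each direction. In L6b-like nuclei, the deepest cortical layer, it stood at 28.1, 28.8, 60.7 and 28.8 CPM in libraries 1 to 4, against 7.80, 9.16, 12.5 and 6.58 CPM in the other named excitatory classes. Each L6b-like value was above all 4 of the others, and the library 3 value rests on 10 UMIs in 11 nuclei. The log2 ratio of 1.89 (1.505 to 2.25) was called, as were 3.04% of genes on the higher side of this comparison. After each nucleus was thinned to 1500 UMIs the ratio was 1.85 and no longer met the rule. Thinning leaves fewer UMIs and the rule asks for 100, so here and below a call lost that way need not mean a smaller ratio. It was called but smaller at resolution 0.5 (1.27) and with at most 1% mitochondrial UMIs (1.47). An Nr4a2 UMI was present in 21.7% of the 175 L6b-like nuclei, and 1 of them held as many as 5, so the level was not made by a few nuclei. Nr4a1 went the other way in the same nuclei without reaching 2-fold, at 40.1 against 70.6 CPM (-0.82, -1.14 to -0.51), and Nr4a3 stood at 33.2 against 31.3 CPM (0.09, -0.27 to 0.42).

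The L6b-like pattern of Nr4a2 was not that of other activity genes. Of 21 immediate early genes 10 were called lower there and 0 higher, at a median log2 ratio of -0.97 against -0.06 over all genes, where 10.8% of genes were called lower. The AP-1 subunit gene Fosb stood at 1.37 against 7.55 CPM (-2.47, on 3 UMIs), the ERK phosphatase gene Dusp6 at -2.01 (-3.46 to -0.88) and Egr3 at -1.99 (-2.66 to -1.38). Of 15 late activity genes 8 were lower, among them Baz1a (-3.94, on 1 UMI), the activin subunit gene Inhba (-2.91, -4.13 to -1.93) and Ptgs2 (-2.59, on 3 UMIs). The single late activity gene called higher with Nr4a2 was Sorcs3, a sorting receptor, at 1041 against 364 CPM (1.52, 1.46 to 1.58). Of 18 upstream genes 0 were called, of 12 partners and corepressors 2 were lower, the nuclear receptor corepressor gene Nrip1 (-1.37) and Rxrg (-1.12, on 3 UMIs). Of 12 other nuclear receptors 2 were lower, Rorb (-4.77) and the mineralocorticoid receptor gene Nr3c2 (-1.28).

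Nr4a2 was nearly absent from L5/6 NP-like nuclei, the near-projecting neurons of the deep layers. It stood at 2.07, 2.17, 0 and 2.70 CPM there, against 8.76, 10.1, 13.8 and 7.47 CPM in the other named excitatory classes, 8 UMIs in 431 nuclei in all. The log2 ratio was -2.14 (-3.36 to -1.16), called as were 9.34% of genes on the lower side. After thinning it was -1.62 and not called. In the same nuclei Nr4a3 was above the others in each library, at 46.5, 63.1, 39.1 and 54.0 CPM against 26.8, 32.6, 38.4 and 27.9 CPM, short of 2-fold (0.80, 0.59 to 1.01), and Nr4a1 stood at 53.5 against 70.6 CPM (-0.40, -0.61 to -0.20). Of 21 immediate early genes 7 were lower and 1 higher in L5/6 NP-like nuclei. The lower ones included Klf10 (-2.38, -2.92 to -1.88), Egr3 (-1.66) and Homer1 (-1.41), a synaptic scaffold gene, with Fosl2, Npas4, Arc and Egr2 between -1.28 and -1.01. The higher one was Dusp5, at 22.0 against 5.24 CPM (2.07, 1.71 to 2.41). Of 15 late activity genes 7 were lower, among them Baz1a (-3.75, on 2 UMIs), Inhba (-3.26) and Sorcs3 (-2.31), with Gadd45b, Nptx2, Ptgs2 and Bdnf between -1.95 and -1.61. Camk4 (-1.25) was lower as well, as were Nr3c2 (-1.79), Nr2f1 (-1.55) and Nr1d1 (-1.03), while Esrrg was higher (1.04).

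Nr4a1 reached the 2-fold size in no named excitatory class. Its highest named level was in L4/5 IT-like nuclei (intratelencephalic neurons of the middle layers), at 109, 80.4, 113 and 101 CPM, against 68.3, 55.9, 71.8 and 67.2 CPM in the others. All 4 of its values lay above all 4 of the others, though the log2 ratio of 0.61 (0.51 to 0.71) was under 2-fold. With at least 1000 genes per nucleus it was 1.05 and called. In the same nuclei Nr4a2 was low in each library (5.03 against 9.58 CPM, -0.93, -1.38 to -0.51), and so was Nr4a3 (20.7 against 32.9 CPM, -0.67, -0.88 to -0.46). L5 IT-like nuclei had Nr4a1 at 82.9 CPM, L5 ET-like (extratelencephalic) nuclei at 71.7, L6 CT-like (corticothalamic) nuclei at 66.8 and L2/3 IT-like nuclei at 55.4. In all, 2 of 21 pairs of a member and a named excitatory class were called, or 9.52%, beside 10.6% of all genes called in either direction over the same 7 comparisons, so the number of calls is at the background. Among all genes, the share called higher and the share called lower were 4.37% and 5.99% in L2/3 IT-like nuclei, 3.02% and 5.73% in L4/5 IT-like, 3.06% and 6.57% in L5 ET-like, 1.89% and 5.34% in L5 IT-like, and 2.77% and 7.51% in L6 CT-like nuclei. In L5/6 NP-like nuclei 4.53% were called higher.

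Unnamed excitatory clusters were set against the named excitatory classes in the same way. The Dnah14 Zfp804b cluster of 442 nuclei had the highest Nr4a3 level of any class, at 77.2, 81.5, 42.1 and 76.6 CPM, against 27.7, 34, 38.5 and 29.3 CPM (1.25, 1.09 to 1.397), and was called, as were 2.54% of genes on the higher side, beside 5.51% on the lower. Library 3, with 35 nuclei, was lower than the rest but still above all 4 of the values it was set against. Nr4a2 was also called there, at 22.5, 23.0, 14.03 and 30.1 CPM, against 8.44, 9.76, 13.2 and 7.22 CPM (1.42, 1.15 to 1.69). The Nr4a2 call was lost with doublets kept, at a ratio of 1.42, and after thinning, at 1.11. Nr4a1 stood at 70.0 against 69.7 CPM (0.01, -0.15 to 0.15). A few nuclei weighed heavily in this cluster: 24 nuclei with at least 5 Nr4a3 UMIs held 46.7% of its Nr4a3 UMIs. Other activity genes called higher in the same cluster were the AP-1 subunit genes Fosl2 (1.32) and Fosb (1.14) among 21 immediate early genes, and Ptgs2 (1.72), Bdnf (1.64) and Sorcs3 (1.55) among 15 late activity genes. The retinoid X receptor Rxrg (1.90) and Rorb (1.19) were higher there as well, while Nrip1 (-1.09), Esrrg (-2.57) and Nr3c2 (-1.28) were lower.

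The Ndst4 Ndnf cluster of 182 nuclei had the highest Nr4a2 level, at 36.2, 28.2, 49.7 and 66.1 CPM, against 8.44, 9.76, 13.2 and 7.22 CPM (2.08, 1.75 to 2.39). It was called, where 0.66% of genes were called higher and 7.54% lower, but not after thinning (2.01). Its library 3 value is 1 UMI in 2 nuclei, and 6 nuclei held 52.1% of its Nr4a2 UMIs. The activin subunit gene Inhba (1.34) and Nr3c2 (2.35) were called higher with it. In the order of levels its interval overlapped that of L6b-like nuclei (log2 ratio 0.29, -0.17 to 0.76), and L6b-like nuclei did not stand apart from the Dnah14 Zfp804b cluster (0.36, -0.08 to 0.79). The Tll2 Unc13c cluster had low Nr4a1 in each library (44.3 against 69.7 CPM, -0.66, -0.81 to -0.51), short of a call, which 5.39% of genes reached on the lower side and 2.07% on the higher. The Pld5 Gadl1 cluster headed the Nr4a1 order at 101 CPM, not set apart from L4/5 IT-like nuclei (0.02, -0.15 to 0.19), and its library 4 value of 136 CPM was above its others, which ran from 64.9 to 88.6. It was not called there, nor was Nr4a2 (1.08, higher in 3 of 4 libraries), beside 1.27% of genes called higher and 5.92% lower. In the 33 nuclei of the Baz1a Ccn1 cluster, none of them in library 3, the 3 genes stood at 62.0, 20.2 and 50.6 CPM for Nr4a1, Nr4a2 and Nr4a3, and none of 14812 genes was called, since a library without nuclei cannot meet the rule.

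**Figure D2:**
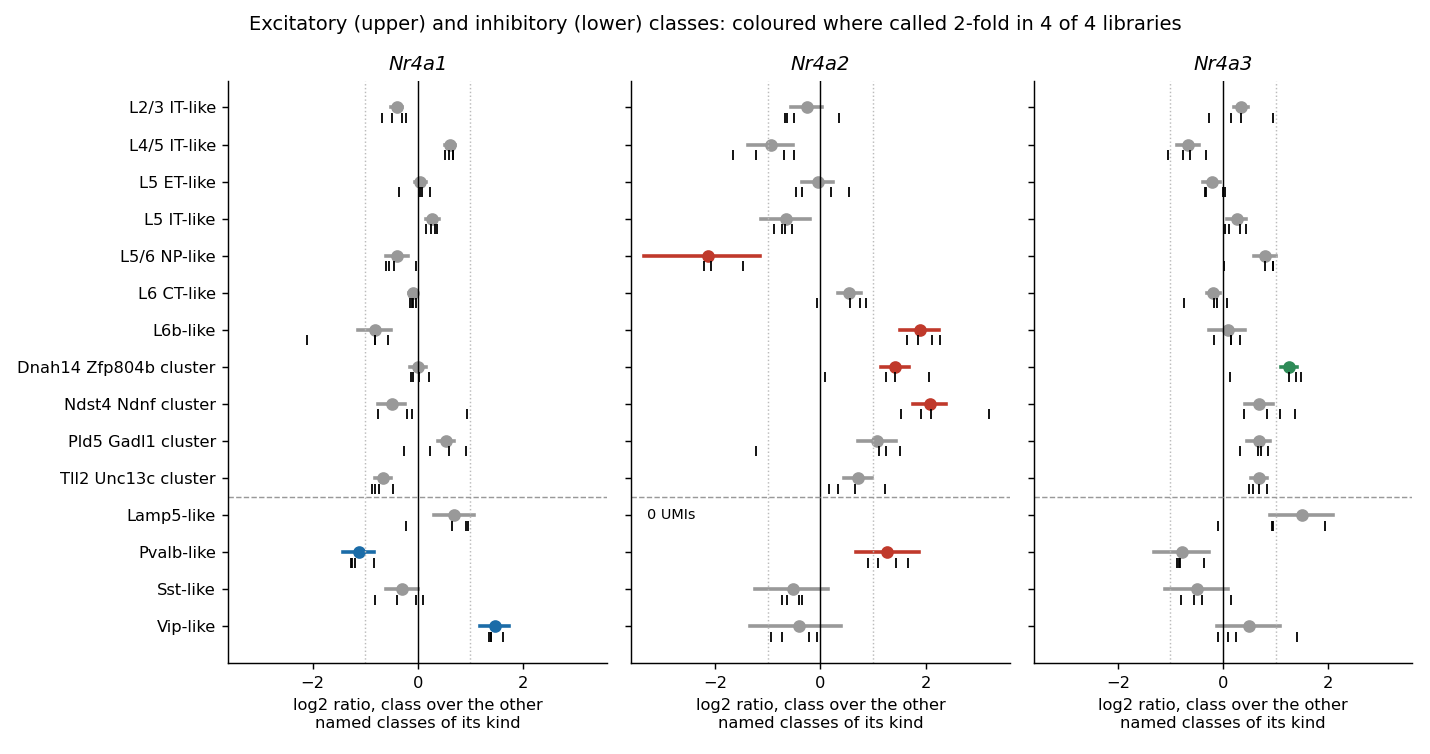
Log2 ratio of each class over the other named classes of its kind (x axes), excitatory above and inhibitory below the dashed line. Points are pooled ratios, thick lines 95% counting intervals, small ticks single libraries, and colour marks ratios called; Nr4a2 has coloured points on both sides (L6b-like 1.89, L5/6 NP-like -2.14), while no Nr4a1 ratio is coloured among excitatory classes.

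Among inhibitory classes Nr4a1 was highest in Vip-like interneurons, which mostly inhibit other interneurons. It stood at 87.9, 86.5, 76.0 and 73.6 CPM in Vip-like nuclei, against 33.6, 28.2, 29.6 and 28.1 CPM in the other named inhibitory classes. The values did not overlap, and the log2 ratio of 1.46 (1.18 to 1.73) was called, as were 3.51% of genes on the higher side and 6.15% on the lower. After thinning the ratio was 1.39 and not called. This Vip-like level was 120% of the excitatory one, far above the 32.5% to 42.4% that the same 4 markers reached there. Npas4, an activity-dependent transcription factor gene, was the 1 of 15 immediate early genes called higher with it (29.4 against 10.7 CPM, 1.45, 0.98 to 1.91). Of 11 late activity genes 3 were higher: Sorcs3 (3.45), the prohormone convertase gene Pcsk1 (2.39) and Inhba (1.87). Camk4 was higher at 256 against 62.6 CPM (2.03, 1.87 to 2.20), as were the receptors Nr3c2 (2.27), Nr2f2 (2.26) and Nr2f1 (1.12). Esrrg was lower (-1.65).

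Pvalb-like interneurons, the fast-spiking class, had little Nr4a1 and more Nr4a2 than other inhibitory nuclei. Nr4a1 stood at 23.8, 21.1, 23.2 and 23.9 CPM there, against 57.5, 50.3, 53.4 and 42.8 CPM (-1.13, -1.42 to -0.84), called as were 5.05% of genes on the lower side. Nr4a2 stood at 9.80, 11.9, 19.0 and 12.5 CPM, against 3.11, 4.36, 8.90 and 6.62 CPM (1.26, 0.68 to 1.86), called as were 3.32% on the higher side. Within each library the Pvalb-like value was the higher one for Nr4a2, and the lower one for Nr4a1. The Nr4a2 level was 110% of the excitatory one, beside 16.4% to 30.6% for the 4 markers. The Nr4a1 level was 33.8% of the excitatory one, just above that range, and the part of free RNA in it was not tested. With the 112 inhibitory Nr4a2 UMIs so close to the minimum of 100, leaving out any single library ended the Nr4a2 call, at ratios of 1.16 to 1.45. The Nr4a1 call was lost at a clustering resolution of 0.5 (-0.35), with at most 1% mitochondrial UMIs (-0.62), with at least 1000 genes per nucleus (-0.99) and after thinning to 1500 UMIs (-0.94). The Nr4a2 call was lost at resolution 0.5 (0.66), with at most 1% mitochondrial UMIs (0.61), after thinning (0.99) and with doublets kept (0.89). Of 15 immediate early genes none was called in Pvalb-like nuclei, and of 11 late activity genes 3 were lower with Nr4a1, Sorcs3 (-2.89), Pcsk1 (-1.85) and Inhba (-1.21). Camk4 (-1.36) and Nr2f2 (-4.83) were lower, while Mef2c (1.10), a transcription factor gene downstream of calcium, and Esrrg (2.22) were higher.

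Lamp5-like interneurons held no Nr4a2 UMI at all. With 0 UMIs in 126 nuclei, against 9.48 CPM in the other inhibitory classes, Nr4a2 was called lower. That reference includes Pvalb-like nuclei at 12.7 CPM, while Sst-like and Vip-like nuclei stood at 6.55 and 6.74 CPM. The Lamp5-like and Pvalb-like calls of Nr4a2 are therefore not independent. The log2 ratio has no finite value, and the upper end of its exact interval was -1.56, or -1.24 to -0.96 with any 1 library left out. A floor of 3 UMIs over the class is 2.57 CPM. A count of 0 allows up to 2.38% of Lamp5-like nuclei to hold a UMI. The call (6.42% of genes were called lower in this comparison) rests on the same 112 UMIs and was lost without any 1 library, with at most 1% mitochondrial UMIs and after thinning, each time with a count of 0 still on the Lamp5-like side. With at most 20% mitochondrial UMIs the Lamp5-like class held Nr4a2 UMIs and gave a log2 ratio of -1.22. Among the lists, Pcsk1 (-1.37) was lower in Lamp5-like nuclei, and Inhba (1.63) and Rora (1.32) were higher. Nr4a3 stood at 15.7, 49.7, 8.16 and 16.5 CPM in Lamp5-like nuclei, against 8.22, 12.97, 8.70 and 8.49 CPM. It was higher in 3 of 4 libraries and not called (1.51, 0.89 to 2.08), beside 3.2% of genes that were called higher there, and without library 2 the ratio was 0.81. It met the rule without library 3 (1.60), with at most 20% mitochondrial UMIs (1.15), with at least 1000 genes per nucleus (1.52) and with doublets kept (1.35). In Sst-like nuclei none of the 3 genes was called, with levels of 32.7, 6.55 and 8.73 CPM for Nr4a1, Nr4a2 and Nr4a3, where 2.27% of genes were called higher and 4.21% lower. The 27 Sst Chodl-like nuclei, long-range projecting inhibitory cells, held 2 Nr4a1 UMIs, 0 Nr4a2 UMIs and 4 Nr4a3 UMIs. Nr4a1 (log2 ratio -2.28, -5.33 to -0.42) and Nr4a2 met the rule there, in a comparison that called 12.7% of genes lower and 2.57% higher, but for Nr4a2 the floor of 12.0 CPM exceeded the 8.80 CPM it was set against, so that no fold is given. In all, 6 of 15 pairs of a member and an inhibitory class were called, 2 of them in this class, beside 9.88% of all genes called in either direction over the same 5 comparisons. With Nr4a1 and Nr4a2, the immediate early genes Junb (-1.66, on 2 UMIs) and Arc (0 UMIs) were called lower in Sst Chodl-like nuclei, as were Mef2c (-1.83), Rxrb (0 UMIs), the late activity genes Sorcs3 (-1.98), Pcsk1 (-1.9995, on 2 UMIs), Inhba and Rgs2 (0 UMIs each), and the receptor genes Rora (-1.69), Nr2f1 (-1.23, on 3 UMIs), Nr2f2 and Rorb (0 UMIs each). The CREB coactivator gene Crtc1 was higher (1.02). Libraries 1 to 4 held 9, 7, 2 and 9 Sst Chodl-like nuclei, and a library with 0 UMIs of a gene counts as lower. The lower calls on 0 to 3 UMIs may therefore follow from the small class. Rxrb and Rgs2, at 11.8 and 8.63 CPM over all inhibitory nuclei, stood under the floor of 12.0 CPM, as Nr4a2 did.

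Outside cortex proper, the 332 striatal medium spiny-like nuclei, the projection neurons of the striatum, had high Nr4a1 and Nr4a3 and little Nr4a2. Nr4a1 stood at 69.4, 85.1 and 140 CPM in libraries 1 to 3, and Nr4a3 at 37.0, 82.0 and 113 CPM. Library 3, with 32 nuclei, was the highest for both genes, and library 4 held 1 such nucleus with none of their UMIs. Pooled levels were 84.0 CPM for Nr4a1, 59.98 CPM for Nr4a3 and 3.10 CPM for Nr4a2. These stood at 123%, 163% and 26.7% of the excitatory levels, beside 26.1% to 40.5% for the 4 excitatory markers. The 210 neuroblast-like nuclei had 35.7, 15.8 and 13.7 CPM of Nr4a1, Nr4a2 and Nr4a3, with Nr4a2 at 136% of its excitatory level on 15 UMIs, beside 52.3% to 73.4% for the 4 excitatory markers.

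In the order of levels most neighbours did not differ beyond their counting intervals. For Nr4a1 the order ran from the Pld5 Gadl1 cluster and L4/5 IT-like nuclei at the top to Pvalb-like and glial nuclei at the bottom, and the one step whose interval left out 0 was L4/5 IT-like over striatal medium spiny-like nuclei (log2 ratio 0.25). That step held in 2 of 4 libraries, 1 and 4, and library 4 had 1 striatal medium spiny-like nucleus. For Nr4a2 the one such step was L6 CT-like over L5 ET-like nuclei (0.38), higher in 2 of 4 libraries. For Nr4a3 the steps were the Dnah14 Zfp804b cluster over striatal medium spiny-like nuclei (0.31, in 2 of 4 libraries) and the Pld5 Gadl1 cluster over L2/3 IT-like nuclei (0.42, in 3 of 4). None of these steps held in all 4 libraries.

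Neurons of named classes, 8361 nuclei, were next compared with 1083 non-neuronal nuclei of named classes. Nr4a1 stood at 68.3, 56.04, 74.0 and 66.6 CPM in neurons, against 24.3, 28.9, 29.4 and 26.3 CPM in non-neuronal nuclei (log2 ratio 1.28, 1.02 to 1.54), and was called, as were 13.1% of genes on the neuronal side and 18.3% on the other. Nr4a3 stood at 25.5, 32.7, 36.4 and 26.6 CPM in neurons, against 16.5, 14.4, 1.28 and 12.1 CPM (1.28, 0.90 to 1.69), and was called as well. Without library 3, whose non-neuronal value is 1 UMI, its ratio was 0.98, short of 2-fold. Nr4a2 stood at 7.99, 9.38, 12.9 and 7.498 CPM in neurons, against 14.8, 13.7, 7.68 and 6.07 CPM, with overlapping values and no common direction (-0.25, -0.66 to 0.20). These neurons leave out the unnamed excitatory clusters, among them those with the highest Nr4a2 and Nr4a3. With all 10106 neurons, an alternative chosen after the data had been seen, the ratios were 1.26 for Nr4a1, 0.078 for Nr4a2 (-0.33 to 0.52) and 1.51 for Nr4a3, with the same calls. Of 21 immediate early genes 4 were called higher in neurons, led by Npas4 (2.19), Homer1 (2.08) and Dusp5 (2.06), and Jun was lower (-1.25). Of 15 late activity genes 2 were higher, Pcsk1 (2.09) and Inhba (1.22), and Tiparp was lower (-1.60). Of 18 upstream genes 2 were higher, Camk4 (2.52) and Mef2c (1.62), and 3 lower, the largest being Crem (-1.28). Of 12 partners and corepressors the deacetylase gene Hdac1 was lower (-1.17), and of 2 dopamine list genes Aldh1a1 was lower (-3.15). Of 14 other nuclear receptors Esrrg was higher (1.56) and 4 were lower, led by Nr2e1 (-4.75), Rorb (-3.23) and Rora (-1.86).

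Both calls depended on which barcodes entered. With at most 1% mitochondrial UMIs the Nr4a1 ratio was 0.28 and the Nr4a3 ratio -0.11, and with doublets kept they were 0.82 and 0.92. The Nr4a3 call was also lost with at most 20% mitochondrial UMIs (0.97) and with at least 1000 genes per nucleus (0.99). Excitatory transcripts in these shallow nuclei stand beside the result: Slc17a7 was at 59.9% of its excitatory level in named non-neuronal nuclei, above the 39.7% of Nr4a1 and the 32.7% of Nr4a3, and below the 90.8% of Nr4a2. Neurod6, Tbr1 and Neurod2 were at 53.5% to 77.4%. The glial levels of Nr4a1 and Nr4a3 cannot be told apart from background, and the part of free RNA in the ratios was not tested.

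Among glia, astrocyte-like nuclei stood out for Nr4a2 without a call. It stood at 25.1, 20.5, 11.3 and 6.41 CPM there, against 7.43, 7.56, 4.67 and 5.83 CPM in the other named non-neuronal classes, higher in 4 of 4 libraries but on 49 UMIs in all (log2 ratio 1.27, 0.38 to 2.21). At 135% of its excitatory level it was above each of the 4 excitatory markers in these nuclei, which ran from 52.5% to 81.7%. Median depth was 3695 UMIs in astrocyte-like and 10981 in excitatory nuclei. Oligodendrocyte precursor-like nuclei had 25.6, 7.80 and 13.9 CPM of Nr4a1, Nr4a2 and Nr4a3, and the Prr5l Sec14l5 cluster, which had 7 of 7 oligodendrocyte markers but stayed unnamed because it was shallow, had 22.5, 5.46 and 11.3 CPM. The Runx1 Inpp5d cluster, with 7 of 7 microglia markers and equally shallow, had 29.6, 6.07 and 18.2 CPM, with Slc17a7 at 99.9% of its excitatory level. None of the 12 pairs of a member and a named non-neuronal class was called, and 4 of them had the 100 UMIs required. In these comparisons 10.5% of genes were called higher and 13.8% lower in astrocyte-like nuclei, 9.44% and 10.7% in oligodendrocyte precursor-like, 7.36% and 22.7% in committed precursor-like, and 4.38% and 8.34% in leptomeningeal-like nuclei.

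As the 3 genes varied in different directions, the make-up of a class's Nr4a UMIs changed from class to class. In excitatory nuclei together 58.5% of Nr4a UMIs were Nr4a1, 9.94% Nr4a2 and 31.6% Nr4a3, and in inhibitory nuclei 65.7%, 14.9% and 19.4%. L4/5 IT-like nuclei were the most Nr4a1-weighted among excitatory classes, with 79.5% (exact binomial interval 77.2 to 81.7) Nr4a1 and 4% Nr4a2, and Vip-like nuclei were like them with 79.1% (73.0 to 84.3) Nr4a1. L5/6 NP-like nuclei divided evenly between Nr4a1, 49.4% (44.4 to 54.3), and Nr4a3, 48.7% (43.7 to 53.6). In L6b-like nuclei Nr4a2 made up 29.7% (23.9 to 36.1), and in Pvalb-like nuclei 29.0% (23.5 to 35.0). The Nr4a2 share of L6b-like nuclei was 25.0% to 30.9% in libraries 1, 2 and 4 and higher still in library 3, and that of L4/5 IT-like nuclei 2.85%, 3.17%, 6.81% and 3.80%, so the classes were apart in each library. Shares weigh genes by how well each is captured, so only differences between classes are read from them.

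**Figure D3:**
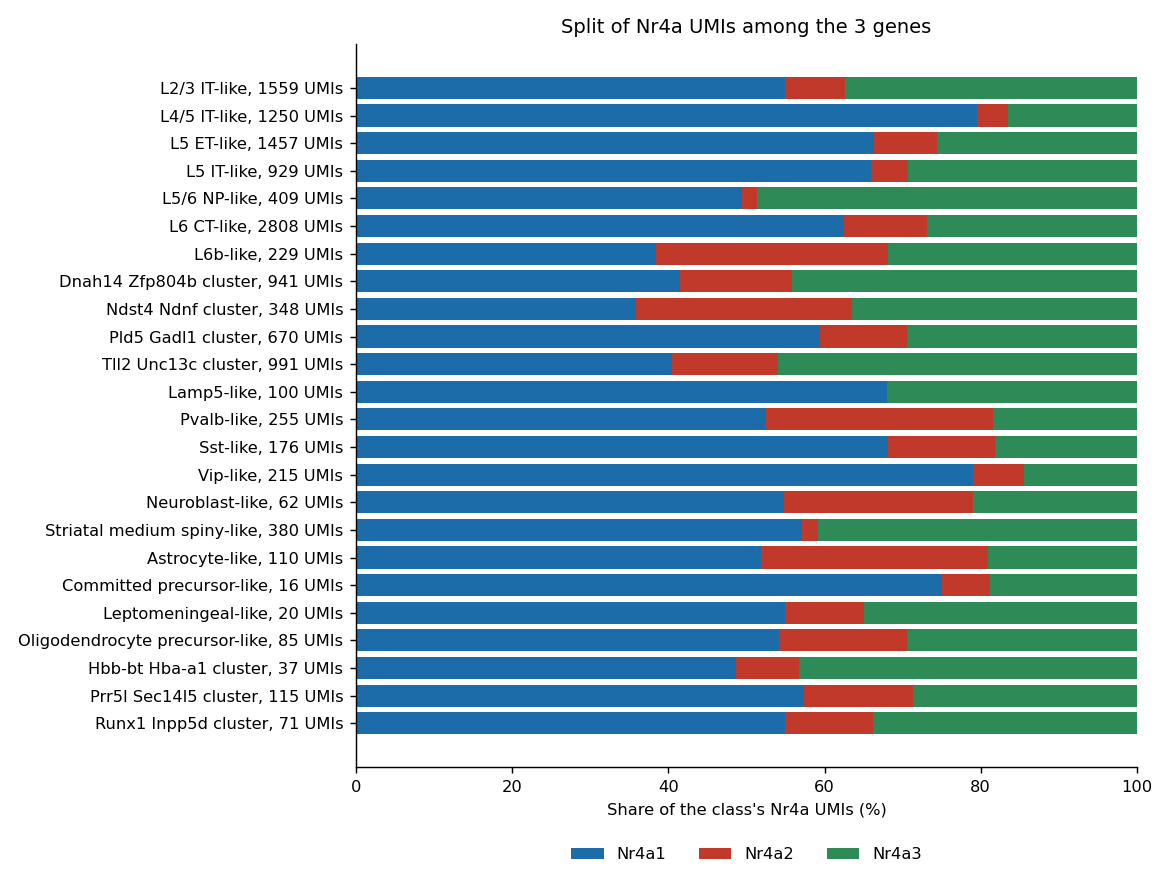
Share of each class's Nr4a UMIs that came from Nr4a1, Nr4a2 and Nr4a3 (x axis, %), by class (y axis, with the number of Nr4a UMIs). Nr4a1 takes 79.5% in L4/5 IT-like nuclei, Nr4a2 29.7% in L6b-like nuclei and Nr4a3 48.7% in L5/6 NP-like nuclei.

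Across classes Nr4a1 and Nr4a3 were more alike than either was to Nr4a2. Over the 18 named classes, Pearson's r of log2(CPM + 1) was 0.58 between Nr4a1 and Nr4a3, 0.17 between Nr4a1 and Nr4a2 and -0.13 between Nr4a2 and Nr4a3. These classes come from the same 4 libraries and differ in depth, so r is given as a description. Each class weighs the same in r, also the 126 Lamp5-like and 27 Sst Chodl-like nuclei with 0 Nr4a2 UMIs. Such floor values weigh on r for Nr4a2. Of 10380 genes with at least 500 UMIs, those most like Nr4a1 were Tmem120b (0.86), the muscarinic receptor gene Chrm1 (0.84), the kinase gene Camk2a (0.83), Spag6l (0.82) and the kinase gene Lrrk2 (0.82). Those most like Nr4a2 were the peroxisomal gene Pex16 (0.87), the collagen hydroxylase gene P4ha3 (0.85), the immune receptor gene Cd180 (0.80), Ccdc7a (0.75) and the ETS factor gene Etv5 (0.73). Those most like Nr4a3 were Camkv (0.89), Phactr1 (0.86), an actin and phosphatase regulator, the convertase gene Pcsk2 (0.85), the RNA-binding protein gene Celf5 (0.83) and the adhesion gene Nptn (0.83).

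Over excitatory nuclei as a whole, those that held one Nr4a transcript held more of the other 2 at the same class and depth. To set class and depth aside, UMIs in excitatory nuclei with a member were compared with the number expected from nuclei without it in the same class and library at the same total count. Nuclei with Nr4a3 had 694 Nr4a2 UMIs against 176 expected, a ratio of 3.94 (3.65 to 4.25), at 3.51, 4.51, 3.32 and 4.15 in libraries 1 to 4. Nuclei with Nr4a1 had 843 Nr4a2 UMIs against 278 expected (3.03, 2.83 to 3.25) and 2582 Nr4a3 UMIs against 975 expected (2.65, 2.55 to 2.75). Nuclei with Nr4a2 had 990 Nr4a3 UMIs against 291 expected (3.40, 3.19 to 3.62). Nr4a1 UMIs were 1.93 times those expected in nuclei with Nr4a2 and 1.91 times in nuclei with Nr4a3. All 24 library values, 4 for each of the 6 directions, were above 1, from 1.82 to 4.59.

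The shares of nuclei ran the same way. An Nr4a3 UMI was found in 34.3% (32.8 to 35.9) of the 3594 excitatory nuclei with Nr4a1, against 16.7% (15.6 to 17.8) of the 4624 without it. These nuclei had medians of 12446.5 and 9938.5 UMIs. With each nucleus thinned to 1500 UMIs the shares were 8.30% and 4.62%. For Nr4a2 the shares were 13.1% of nuclei with Nr4a1 and 4.37% of those without, or 3.29% and 1.49% after thinning. As a whole, 270 of the 8218 excitatory nuclei (3.29%) held all 3 transcripts, 963 (11.7%) held Nr4a1 with Nr4a3 alone, 2161 (26.3%) Nr4a1 alone, 697 (8.48%) Nr4a3 alone, 200 (2.43%) Nr4a1 with Nr4a2 alone, 74 (0.90%) Nr4a2 with Nr4a3 alone, 128 (1.56%) Nr4a2 alone, and 3725 (45.3%) none.

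Observed over expected ratios varied from class to class. Of 64 ratios over 11 excitatory classes, 57 had intervals above 1, 7 had intervals that include 1 and 0 lay below. For Nr4a2 in nuclei with Nr4a3 the ratio was 10.1 (8.30 to 12.2) in the Tll2 Unc13c cluster, 8.44 (6.96 to 10.2) in the Dnah14 Zfp804b cluster and 8.40 (6.62 to 10.5) in the Ndst4 Ndnf cluster. It was 3.38 to 3.93 in L6 CT-like, L2/3 IT-like and L5 ET-like nuclei. In L6b-like nuclei, where the Nr4a2 level was high, it was 1.26 (0.77 to 1.94), with 20 UMIs against 15.9 expected, and in L4/5 IT-like nuclei 1.53 (0.85 to 2.52), both with intervals that include 1. In L4/5 IT-like nuclei with Nr4a2 the ratio was 1.05 (0.82 to 1.34) for Nr4a1 and 1.06 (0.56 to 1.81) for Nr4a3, and for Nr4a2 in those with Nr4a1 it was 1.32 (0.94 to 1.82). In L5/6 NP-like nuclei Nr4a2 was at 0.59 (0.072 to 2.15) with Nr4a1 and 1.90 (0.52 to 4.86) with Nr4a3, on 2 and 4 UMIs. For Nr4a3 in nuclei with Nr4a1 the ratio was 5.08 (4.55 to 5.65) in the Dnah14 Zfp804b cluster, 4.28 (3.88 to 4.70) in L2/3 IT-like nuclei and 1.53 (1.07 to 2.13) in L6b-like nuclei. These intervals cover counting error of the observed UMIs alone. They take the expected count as exact and leave out that a few nuclei hold many of the UMIs, so they are too narrow. Differences between classes were not tested and are not read from whether intervals overlap.

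**Figure D4:**
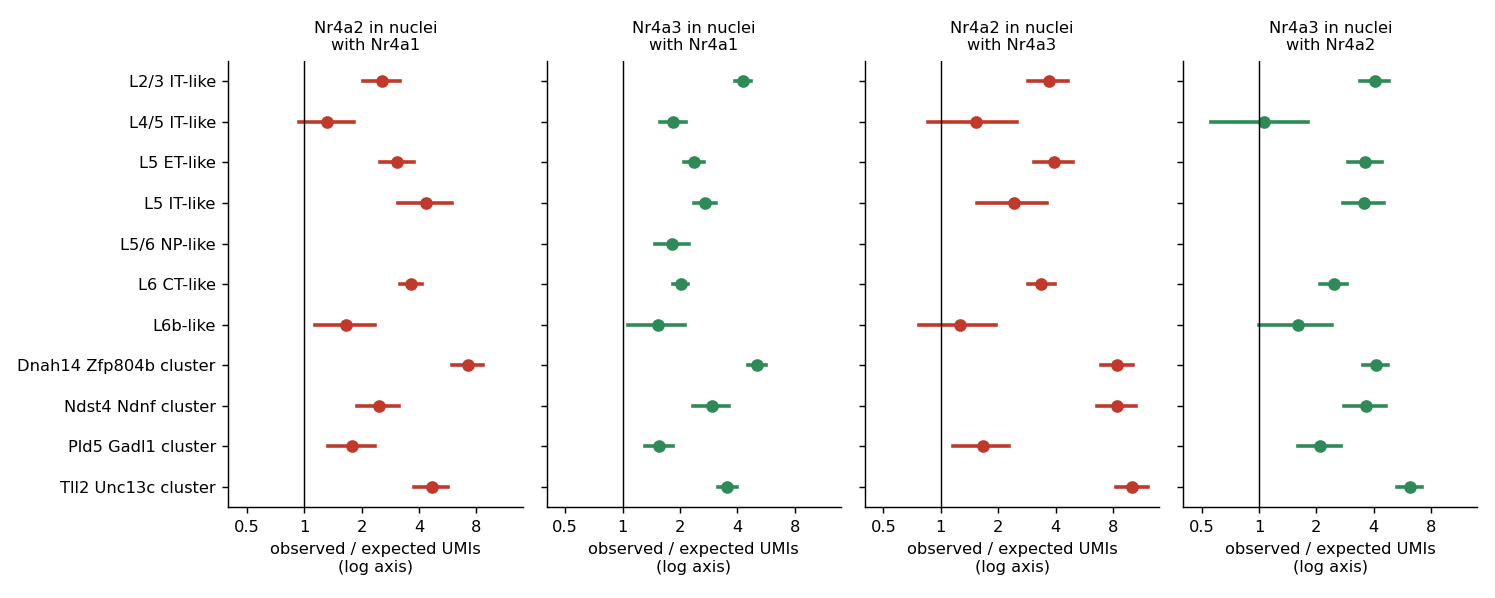
Observed over expected UMIs (x axes, log scale) of one Nr4a gene in nuclei that hold another, by excitatory class (y axis), at the same class, library and depth. Points are ratios and lines 95% Poisson intervals of the observed count alone. For Nr4a2 beside Nr4a3 the Tll2 Unc13c cluster is at 10.1 and L6b-like nuclei at 1.26, with an interval that crosses 1.

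The same nuclei held more of most activity genes. Over 11378 genes the median log2 of observed over expected was -0.09 in nuclei with Nr4a1, and 95% of genes lay below 0.21. The corresponding limits were 0.25 for Nr4a2 and 0.21 for Nr4a3. Of 19 immediate early genes measured, 15 lay above that limit for each of the 3 members. Fosb was at 3.68, 3.25 and 3.74 times its expected UMIs in nuclei with Nr4a1, Nr4a2 and Nr4a3, and Npas4 at 3.13, 3.01 and 3.06. Fos reached 2.27, 2.71 and 2.22, and Homer1 1.84, 1.87 and 1.85. Jun, an AP-1 partner of Fos, stood at 0.96, 1.11 and 1.11, and Klf10 at 1.08, 0.96 and 0.99, so not every immediate early gene went with the family. Of 15 late activity genes 12, 12 and 13 lay above the limit, with Bdnf at 2.73, 2.69 and 3.22, Ptgs2 at 2.76, 2.98 and 3.40, and Tiparp, a poly-ADP-ribose polymerase gene, at 2.72, 3.12 and 3.35.

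The other lists did not follow. Of 17 genes of the CREB, MEF2 and SRF pathway 1, 2 and 2 lay above the limit for Nr4a1, Nr4a2 and Nr4a3. These were Crem, which encodes the activity-induced repressor ICER and is itself a CREB target, for all 3, and the class IIa deacetylase gene Hdac5 for Nr4a2 and Nr4a3. Of 10 partners and corepressors 0, 0 and 1 did, the one being the deacetylase gene Hdac3, and of 12 other nuclear receptors none did for any member. The 2 measured genes of the dopamine neuron list, which Nr4a2 controls in the midbrain, had medians of -0.10, -0.18 and -0.09 on the log2 scale, and neither passed. A description over nuclei of 1 matrix, these values carry no test.

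**Figure D5:**
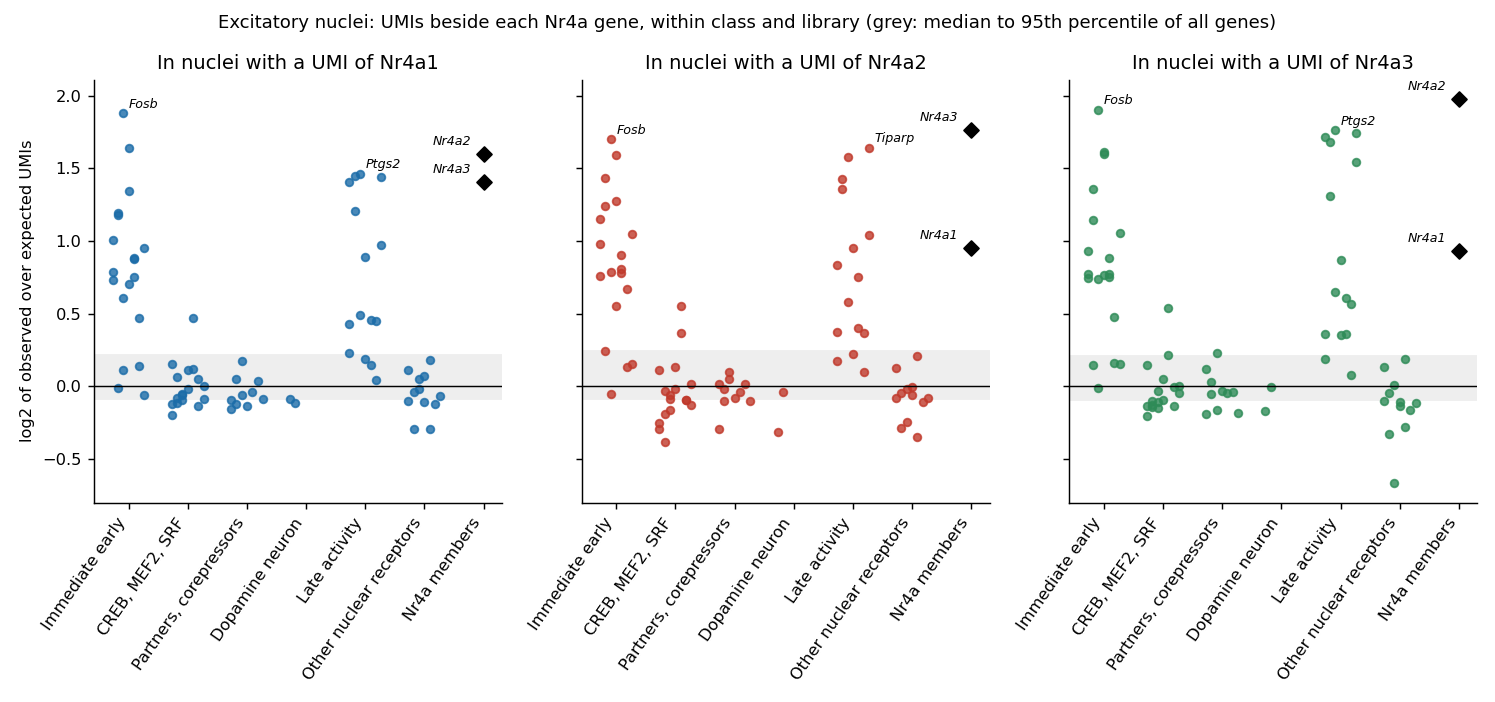
Log2 of observed over expected UMIs (y axis) of list genes and of the other Nr4a members in excitatory nuclei that hold a UMI of Nr4a1, Nr4a2 or Nr4a3 (panels), grouped by list (x axis). The grey band runs from the median to the 95th percentile of 11378 genes; 15 of 19 immediate early genes lie above it in each panel, and 0 of 12 other nuclear receptors.

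Nuclei with a transcript of the reporter did not hold more Nr4a UMIs than nuclei without one. In 6 classes with at least 50 nuclei that held a UMI of the TREmcherry transcript (L2/3 IT-, L4/5 IT-, L5 ET-, L5 IT-, L6 CT- and Pvalb-like), 654 positive nuclei were set against 5781 negative ones of the same class and library, at the same depth (medians of 11879 and 10844 UMIs before that adjustment). Nr4a1 had 533 UMIs in positive nuclei against 587 expected (ratio 0.91, 0.83 to 0.99), at 0.85, 1.05, 0.80 and 0.86 in libraries 1 to 4. Nr4a3 had 249 against 252 expected (0.99, 0.87 to 1.12), at 0.84, 0.99, 1.78 and 0.89. Nr4a2 had 57 against 77.3 expected (0.74, 0.56 to 0.95), at 0, 0.92, 1.04 and 0.69. Ranked from the lowest ratio up among 10637 genes, Nr4a1 stood at percentile 12.7, Nr4a2 at 0.61 and Nr4a3 at 42.8. None of the 3 reached 2-fold, and none went the same way in all 4 libraries. The share of positive nuclei itself ran from 4.03% to 13.6% over libraries. Without library 4 the log2 ratio of Nr4a1 was -0.058 in the same 6 classes, an alternative chosen after the data had been seen. It was 0.12 where the classes were chosen again by the 50-nuclei minimum, which 2 classes then met. When light was given is not stated in the sources used here, and positive nuclei of DOI and saline samples cannot be told apart.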

How the data were processed

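Per the labels, nuclei were profiled with 10x Genomics 3′ v3.1 chemistry. The authors deposited 1 pooled matrix of whole-number UMI counts without normalization, made with Cell Ranger 7.1.0 on build mm10 according to the submitters' processing notes. The 4 barcode endings were not tied to samples, so the planned test of DOI against saline was not run, and no p-value is given. Filters removed 9132 barcodes with fewer than 500 genes, fewer than 800 UMIs or more than 5% of UMIs from mitochondrial genes. Doublets were scored per library with Scrublet in scanpy 1.11.5, and 289 above 0.25 were removed. That limit was used because the automatic threshold of library 4 (0.5054) marked 3 doublets.

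Nuclei were clustered with Leiden at resolution 1 on 2000 variable genes, 30 components and 15 neighbours, leaving out the Nr4a genes, the listed genes, transgenes, sex-linked and mitochondrial genes. Excitatory nuclei were clustered a second time alone. A cluster was named from at least 3 markers of a class. Clusters whose median UMI count was under 0.3333 of that of the nuclei they came with stayed unnamed where no marker of the class was among their leading genes.

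UMIs were summed per class and library and given per 1000000 (CPM). Ratios have exact conditional binomial 95% intervals, levels and observed counts exact Poisson ones, and shares Clopper-Pearson ones. Where observed UMIs were set against expected ones, the expected count was taken as exact. A count of 0 was bounded by 3 counts. Levels of excitatory markers outside excitatory nuclei are given for 4 of the 5 in the list, and the other one, which is not reported here, lies outside the ranges printed. The genes named are the 3 members, the 5 genes most like each over the classes, at most the 3 largest called ratios of each list per comparison, and list genes with the same subclass call as a member. In the co-detection results, genes of the lists were named after their values were seen. The members, lists and rules were chosen with earlier results of these data known. Scripts were tested on simulated data.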

Additional observations from a re-analysis of the deposited data

Results flagged for a closer look

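Barcodes left out of the kept nuclei, by the filters or as the 289 doublets, also held Nr4a transcripts. No comparison under the main settings used them, though some alternative settings took part of them in. There were 1513 Nr4a1 UMIs, 490 Nr4a2 UMIs and 969 Nr4a3 UMIs in them, above the limit of 3 that a count of 0 allows. As a level, removed barcodes held 50.1 CPM of Nr4a1, 16.2 CPM of Nr4a2 and 32.1 CPM of Nr4a3, against 62.2, 10.9 and 32.8 CPM in kept nuclei. In each of libraries 1 to 4 Nr4a2 was higher in removed barcodes, at 15.03, 18.6, 20.6 and 14.997 CPM, against 10.2, 11.6, 12.8 and 10.1 CPM in kept nuclei. Of the 9132 barcodes removed before doublets were scored, 8638 exceeded the mitochondrial limit, and the part of these barcodes in any result was not tested beyond the alternative limits of 1% and 20%.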

How the results depend on the processing

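Of 180 values of the 18 main results under alternatives, 151 stayed within their counting error or, for counts of calls, within 1.5 times, 28 moved and 1 reversed. The cause was not tested, and class sets differ between settings. With at most 1% mitochondrial UMIs (3882 nuclei) neurons over non-neuronal nuclei gave log2 ratios of 0.28 for Nr4a1, -1.45 for Nr4a2 and -0.11 for Nr4a3, the one that reversed. In that setting excitatory over inhibitory Nr4a1 was 0.98, reporter-positive over negative Nr4a2 was -1.58, and excitatory and inhibitory subclass calls numbered 4 and 1, against 2 and 6. Excitatory calls also numbered 4 with at least 1000 genes, inhibitory calls 0 at resolution 0.5 and 0 after thinning, and glial calls 1 with at most 20% mitochondrial UMIs. Thinned inhibitory comparisons hold few UMIs, and those under 100 cannot be called at any ratio, so the 0 after thinning does not bear on the size of the ratios. At resolution 0.5 the Sst Chodl-like ratios turned to 0.056 for Nr4a1 and 0.23 for Nr4a2. Excitatory over inhibitory Nr4a2 was 0.12 after thinning and 0.061 in named classes alone, and neurons over non-neuronal nuclei gave 0.82 for Nr4a1 with doublets kept and -0.77 for Nr4a2 after thinning. Co-detection after thinning, as log2, was 1.22 for Nr4a2 and 0.99 for Nr4a3 beside Nr4a1, 2.13 for Nr4a3 beside Nr4a2 and 1.02 for Nr4a1 beside Nr4a3.

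Leaving out each library gave 1.62 to 2.00 for excitatory over inhibitory Nr4a3, 3 to 4 inhibitory calls, and reporter ratios of -0.20 to 0.12 for Nr4a1 and -0.99 to -0.19 for Nr4a2, where the classes with enough reporter-positive nuclei fell to between 2 and 5 of 6. With the 6 classes held the same they were -0.23 to -0.058 and -0.69 to -0.28. It gave 1.56 to 1.70 for Nr4a2 and 1.32 to 1.51 for Nr4a3 beside Nr4a1, and 1.67 to 1.82 for Nr4a3 beside Nr4a2. Excitatory over inhibitory Nr4a3 was called in 12 of 12 alternatives and L6b-like Nr4a2 in 10 of 11, all but thinning, at 1.27 at the lowest (resolution 0.5). A ratio with a count of 0 has no finite value and is left out of these counts. With unnamed non-neuronal clusters included, also chosen after the data were seen, neurons over non-neuronal nuclei gave 1.30, 0.12 and 1.08 for Nr4a1, Nr4a2 and Nr4a3. No paired analysis was possible because the libraries were not tied to samples. Depth limits Nr4a2 in inhibitory nuclei, which held 112 UMIs.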
